A study of Mus musculus with 16 samples.

Results

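Il2ra, Il2rb, Il2rg, Il7r, Jak1, Jak3, Stat5a, Stat5b, Cish and Socs2 encode the receptors for interleukin 2 (IL-2) and interleukin 7 (IL-7), the kinases and transcription factors that relay their signal, and a pair of its feedback inhibitors. These 10 genes were taken by symbol from the 49585 genes of the count table, and all 10 were found. Their levels were described across 16 RNA-seq libraries of sorted CD4-positive T cells, taken from BALB/c background mice that carry the Foxp3IRES-GFP reporter, a green fluorescent protein placed behind Foxp3, the lineage factor of regulatory T cells (Treg). There were 4 groups of 4 libraries. Pregnant uterine Treg were sorted as CD4+Foxp3+CD25- from the uterus at days 6 to 8 of pregnancy by the source label, although the titles of 3 of these samples give a later last day. Non-pregnant uterine Treg were sorted with the same markers from the uterus of mice that were not pregnant. Lymph node Treg were CD4+Foxp3+CD25+ cells of non-pregnant mice, taken from the para-aortic nodes that drain the uterus. Uterine CD4conv, the conventional T cells, were CD4+Foxp3- cells of the non-pregnant uterus, with no CD25 gate named. Each library came from a pool, of 20 mice where they were not pregnant and of 3 to 8 where they were, and the mice's age was not given in the sources used here. Pregnant uterine Treg and CD4conv were sequenced in batch 1, and non-pregnant uterine Treg and lymph node Treg in batch 2.

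IL-2 binds with high affinity when CD25, the alpha chain encoded by Il2ra, joins the beta chain (Il2rb) and the common gamma chain (Il2rg). The IL-7 receptor pairs its own alpha chain, CD127 (Il7r), with the same common gamma chain. Both receptors activate the kinases JAK1 and JAK3, which phosphorylate STAT5A and STAT5B; these enter the nucleus and switch on genes that include Il2ra, Foxp3, Cish and Socs2. Treg need IL-2 that other T cells make and usually carry much CD25 and little CD127, while resting conventional T cells carry CD127 and depend on IL-7. CD25 was part of the sort gates, so the level of Il2ra between uterine and lymph node Treg cannot be told apart from the gate. Gate and tissue also differ together between these groups, so their parts cannot be told apart for the other genes either.

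In mouse build GRCm38 the receptor genes lie at chr2:11642807-11693193 (Il2ra, plus strand), chr15:78479256-78495271 (Il2rb, minus strand), chrX:101264378-101268255 (Il2rg, minus strand) and chr15:9505788-9530176 (Il7r, minus strand). Stat5b (chr11:100780731-100850724, minus strand) and Stat5a (chr11:100859351-100885169, plus strand) are neighbours that point away from each other. Of the 10 genes, 8 had an entry among the promoters of RefSeq (GRCm38.p6), which run from 250 bases before the annotated start to 50 after it; Il2rb and Socs2 had none. They were searched for TTCNNNGAA, the palindrome that STAT5 dimers bind, which reads the same on both strands. It was found in Cish, with 2 matches that do not overlap, and in Il7r, with 1. At least 1 match was held by 8.30% of all 32851 RefSeq promoters and at least 2 by 0.457%. The 2 promoters with a match are shown because Cish is the pathway's classical target and Il7r the receptor gene whose level ran opposite to Il2ra; capitals mark the matches. The Cish window is chr9:107296409-107296708 on the plus strand and the Il7r window chr15:9529827-9530126 on the minus strand.
Cish: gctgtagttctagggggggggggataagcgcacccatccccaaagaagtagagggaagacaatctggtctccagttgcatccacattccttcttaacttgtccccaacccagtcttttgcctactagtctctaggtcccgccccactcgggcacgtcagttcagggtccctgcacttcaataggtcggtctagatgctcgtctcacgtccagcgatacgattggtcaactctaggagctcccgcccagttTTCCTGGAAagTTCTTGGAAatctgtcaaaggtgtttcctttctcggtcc
Il7r: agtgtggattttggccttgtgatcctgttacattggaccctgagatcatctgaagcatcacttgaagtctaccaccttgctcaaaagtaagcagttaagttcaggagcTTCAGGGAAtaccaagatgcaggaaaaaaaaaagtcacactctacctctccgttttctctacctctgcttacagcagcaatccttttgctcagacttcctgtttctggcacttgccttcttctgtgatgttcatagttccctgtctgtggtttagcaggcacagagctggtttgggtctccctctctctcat
In Cish the matches span offsets 0 to 8 and 11 to 19 from the annotated start, and in Il7r the match spans -142 to -134. A match describes the letters of the window, and binding was not measured.

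The libraries held between 1718558 and 15190212 counts. Levels are given as CPM, each gene's count per 1e6 counts in its library. Reads in genes silent in T cells were present in all libraries; from 1427 olfactory and vomeronasal receptor genes, the background per exonic base was estimated to make up 8.69% to 53.6% of a library's counts, and it exceeded 30% in 5 libraries: pregnant uterine Treg 2 and 4, non-pregnant uterine Treg 3 and 5, and lymph node Treg 3. Of the 10 genes, 9 stood above 5 times this background on average, by 13.1 times (Il2ra) to 98.1 times (Il2rg), and Socs2 stood at 3.72 times. The background's share of a gene's CPM had its median at or under 10.5% for those 9 genes, but in pregnant uterine Treg 4 it reached 72.6% for Stat5a and 57.4% for Cish, and in CD4conv it was 24.9% to 38.6% of the low Il2ra level. Scaled CPM below is CPM after TMM scaling on the genes above background, with the mean factor kept at 1.

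**Figure D1:**
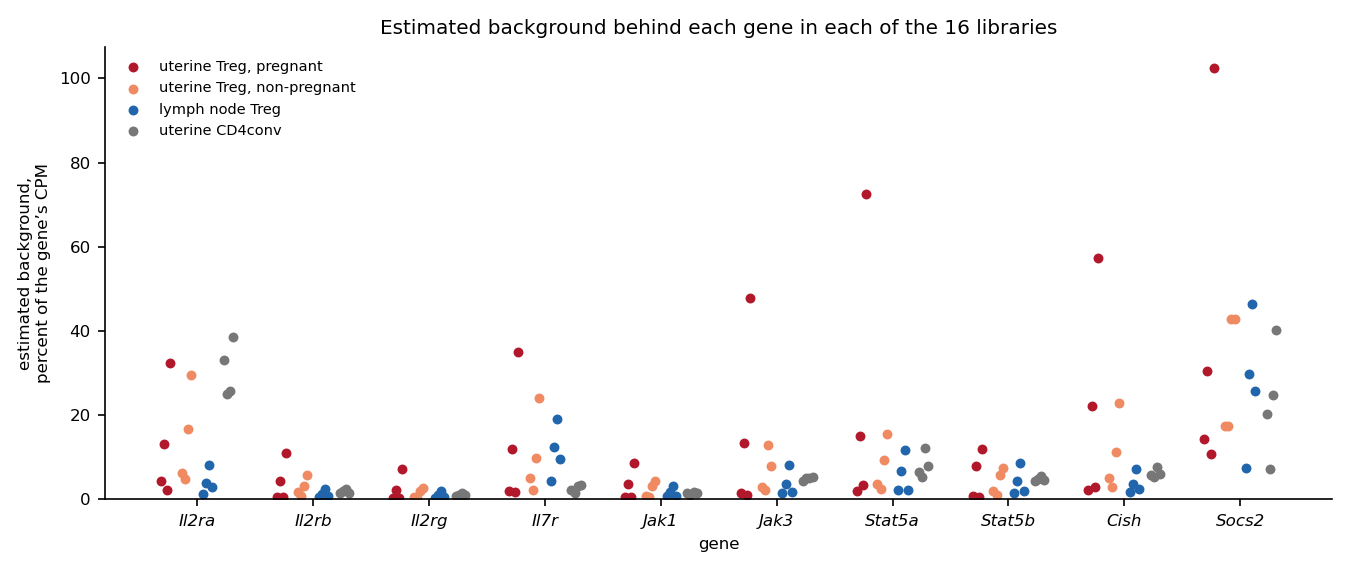
Estimated background as a percent of each gene's CPM (vertical axis) for the 10 genes (horizontal axis), one point per library, coloured by group. Most points lie low; Socs2 has the highest median, 25.2%, and the single high points of Stat5a (72.6%), Cish (57.4%) and Jak3 (47.8%) are pregnant uterine Treg 4.

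The labels were checked on the markers of each cell. Foxp3 averaged 475 ± 318 CPM in pregnant uterine Treg, 417 ± 210 CPM in non-pregnant uterine Treg, 559 ± 182 CPM in Treg of the lymph node and 1.85 ± 1.52 CPM in CD4conv (SD, n = 4 each). The summed level of 6 CD4 T cell markers (Cd3d, Cd3e, Cd3g, Cd4, Lat and Lck) lay between 1031 and 4878 CPM in the Treg libraries and between 1270 and 3005 CPM in CD4conv. CD4conv also carried markers of other cells. Their 6 plasmacytoid dendritic cell markers summed to 2348 to 5696 CPM in CD4conv, against 88.5 to 545 CPM in the Treg libraries, their 15 macrophage and dendritic cell markers to 2720 to 23658 CPM against 575 to 5014 CPM (1834 to 23410 CPM against 141 to 1325 CPM without Ccr7, a homing receptor that T cells also express), their 6 NK cell markers to 303 to 1303 CPM against 4.95 to 38.3 CPM, and their 2 CD8 T cell markers to 139 to 350.0 CPM against 6.02 to 38.6 CPM. No gene of these 4 lists was at 0 in all libraries of a group. The part of these cells in the comparisons with CD4conv was not tested.

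Uterine Treg also differed from lymph node Treg in such markers. Without Ccr7 the other 14 macrophage and dendritic cell markers summed to 174 to 510 CPM in pregnant and 296 to 1325 CPM in non-pregnant uterine Treg, against 141 to 174 CPM in lymph node Treg, so that every non-pregnant uterine library lay above every lymph node library. Tyrobp, a signalling adaptor of myeloid and NK cells, stood at 3.82 to 15.7 CPM in non-pregnant uterine Treg and at 0 to 1.16 CPM in lymph node Treg, and passed (log2 fold change 3.90 ± 0.73, adjusted p = 0.0109 in edgeR over genes above background). The background filter took the mean of all 16 libraries, among them CD4conv, where Tyrobp stood at 274 to 1267 CPM. Both groups compared lay far below that level, and no conclusion is drawn from this call. The 6 NK cell markers, Tyrobp among them, overlapped in sum, at 4.95 to 34.6 CPM in non-pregnant uterine Treg against 18.3 to 25.3 CPM in lymph node Treg. Over all genes, 4 of the 5 NK cell markers tested had a negative log2 fold change and 1 a positive one. The 6 fibroblast markers summed to 26.2 to 1058 CPM in non-pregnant uterine Treg against 19.5 to 147 CPM in lymph node Treg, the 4 epithelial markers to 17.4 to 394 CPM against 14.3 to 19.2 CPM, and the 3 erythroid markers to 7.30 to 158 CPM against 2.22 to 20.9 CPM. Non-pregnant uterine Treg 5 held the highest fibroblast and epithelial sums. The part of these cells in the differences between uterine and lymph node Treg was not tested.

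Across the comparisons, Il2ra and Stat5b were the members that passed edgeR's test with all 16 libraries, in the narrower of 2 sets of genes tested. Counts were tested with edgeR's quasi-likelihood test over all 30096 genes that passed the count filter, with Benjamini-Hochberg adjustment, and again over the 4719 protein-coding genes above background; a gene is said to pass where its adjusted p is under 0.05. The background filter took each gene's mean over all 16 libraries, so a gene could enter it through the groups where it is high. Over all genes none of the 10 members passed in any of the 4 comparisons. In pregnant against non-pregnant uterine Treg, 0% of genes passed in either fit, while 822 of all genes and 301 of those above background had an unadjusted p under 0.05; no member did. In non-pregnant uterine Treg against lymph node Treg, 0% of all genes passed (906 had an unadjusted p under 0.05), Il2ra alone of the members had an unadjusted p under 0.05, and over genes above background 1 of 9 members passed, against 1.29% of genes. In non-pregnant uterine Treg against CD4conv, 0.518% of all genes passed, Il2ra alone of the members had an unadjusted p under 0.05, and over genes above background 2 of 9 members passed, against 6.1% of genes. In pregnant uterine Treg against CD4conv, 0.432% of all genes passed, Il2ra and Stat5b had an unadjusted p under 0.05, and over genes above background 2 of 9 members passed, against 8.39% of genes. DESeq2 over all genes called none of the members in the first 2 comparisons and Il2ra in both comparisons with CD4conv.

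The members' median log2 fold change over genes above background was 0.11 for pregnancy, -0.14 for uterus against lymph node, 0.63 for non-pregnant uterine Treg against CD4conv and 0.49 for pregnant uterine Treg against CD4conv, while the median of all genes tested there was 0.00, 0.05, 0.02 and 0.03. The scale matters for these values: in the fit over all genes the same genes above background had medians of 0.05, -0.22, -0.29 and -0.23 in the 4 comparisons, in that order. Over genes above background, the 6 CD4 T cell markers had medians of -0.10, 0.02, 0.52 and 0.39 in the same order. In both comparisons with CD4conv, 5 of these 6 were positive. Whether the members shifted beyond T cell genes in general was not tested. The comparisons share groups, and the pregnancy comparison and that of non-pregnant uterine Treg with CD4conv also cross the sequencing batches, whose part cannot be told apart from the group.

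**Figure D2:**
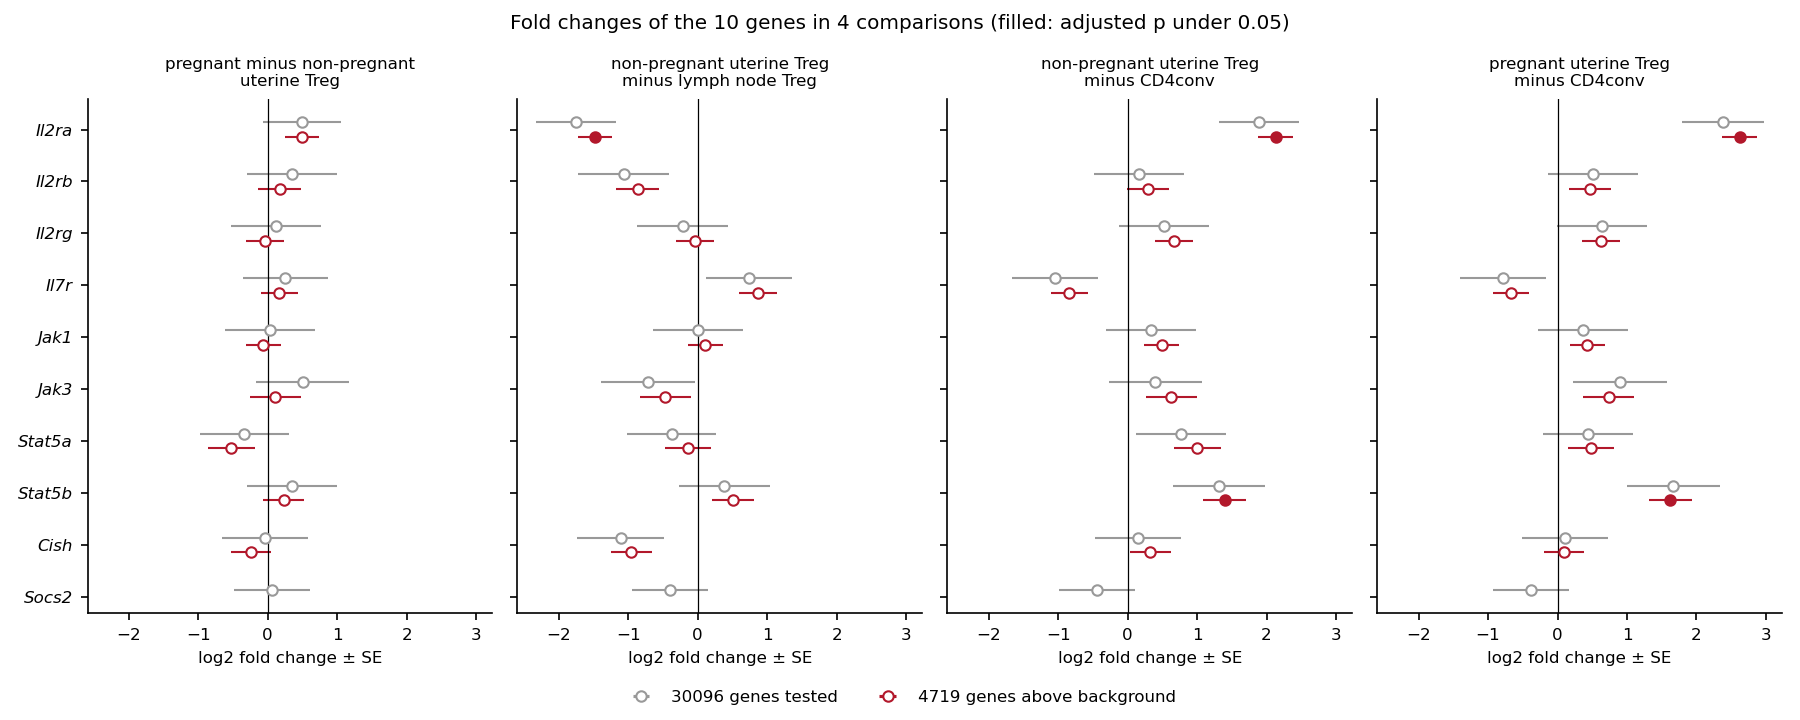
Log2 fold change with its standard error (SE, horizontal axis) of the 10 genes (rows) in 4 comparisons (panels), fitted over 30096 genes (grey) and over 4719 genes above background (red); filled points passed at an adjusted p under 0.05. Il2ra is filled in 3 panels and Stat5b in 2, each over genes above background; Socs2 was tested over all genes only.

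Il2ra, which encodes CD25, formed 3 tiers. Lymph node Treg had the highest level, both uterine Treg groups stood between, and CD4conv had the lowest. In pregnant uterine Treg 1 to 4 it stood at 108, 125, 190.2 and 76.7 CPM. The non-pregnant libraries 1, 2, 3 and 5 of uterine Treg stood at 125, 111, 93.4 and 54.4 CPM. Lymph node Treg 1, 2, 3 and 5 stood at 367, 318, 221 and 276 CPM, and CD4conv 1, 2, 3 and 5 at 22.3, 17.4, 27.2 and 25.9 CPM. Every lymph node library lay above every uterine Treg library, and every Treg library above every CD4conv library; the uterine groups overlapped. The uterine Treg were sorted as CD25-negative, yet the level above background averaged 113 ± 55.3 CPM in the pregnant and 84.9 ± 35.2 CPM in the non-pregnant group, against 285 ± 67.1 CPM in Treg of the lymph node and 16.0 ± 3.02 CPM in CD4conv (SD, n = 4 each). In sorted pools, fewer cells with the transcript and less transcript per cell cannot be told apart.

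Over genes above background, Il2ra was lower in non-pregnant uterine Treg than in lymph node Treg by 2.78-fold (log2 fold change -1.48 ± 0.25 SE, adjusted p = 0.00421 in edgeR). This difference, in every setting below, cannot be told apart from the CD25 gates, negative for uterine and positive for lymph node Treg. Il2ra was higher in non-pregnant uterine Treg than in CD4conv by 4.38-fold (2.13 ± 0.25, adjusted p = 3.62e-05 in edgeR). In pregnant uterine Treg it was higher than in CD4conv by 6.15-fold (2.62 ± 0.26, adjusted p = 4.07e-06 in edgeR). In CD4conv the background made up 24.9% to 38.6% of the Il2ra level, which put that group under 5 times the background. Il2ra thus entered the genes above background through the Treg groups, where it was high. For pregnancy the log2 fold change was 0.49 ± 0.24 and did not pass (adjusted p = 0.769 in edgeR). Over all genes none of these passed in edgeR with TMM scaling and all 16 libraries: the log2 fold change was -1.75 ± 0.58 against lymph node Treg (adjusted p = 1.00), 1.89 ± 0.58 for non-pregnant uterine Treg against CD4conv (adjusted p = 0.262) and 2.38 ± 0.59 for pregnant uterine Treg against CD4conv (adjusted p = 0.0827 in edgeR, and 0.0260 without pregnant uterine Treg 4). Without the 5 libraries over 30% background, the difference from lymph node Treg was -1.46 ± 0.32 over genes above background and no longer passed (adjusted p = 0.0845 in edgeR), while those from CD4conv still passed. Without non-pregnant uterine Treg 5 alone, the library with the high fibroblast and epithelial sums, it was -1.34 ± 0.25 and passed (adjusted p = 0.0165 in edgeR). DESeq2 over all genes gave Il2ra an adjusted p of 0.0128 for non-pregnant and 0.000797 for pregnant uterine Treg against CD4conv.

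Il7r, which encodes the IL-7 receptor alpha chain, ran in the opposite order. In pregnant uterine Treg 1 to 4 it stood at 184, 112, 206 and 57.6 CPM. Non-pregnant uterine Treg 1, 2, 3 and 5 stood at 129, 199.8, 131 and 54.4 CPM. Lymph node Treg 1, 2, 3 and 5 held 82.9, 79.6, 76.8 and 64.7 CPM, and CD4conv 1, 2, 3 and 5 held 293, 237, 189 and 242 CPM. CD4conv held the higher levels and lymph node Treg the narrow lower range, with uterine Treg spread from below the lymph node range to within that of CD4conv. On scaled CPM, every CD4conv library (188 to 264) lay above every library of pregnant (103 to 179.6) and of non-pregnant uterine Treg (67.9 to 169). None of the differences passed over genes above background: the log2 fold change was 0.17 ± 0.27 for pregnancy, 0.87 ± 0.27 for uterus against lymph node, -0.84 ± 0.27 for non-pregnant uterine Treg against CD4conv and -0.67 ± 0.26 for pregnant uterine Treg against CD4conv, with adjusted p of 0.924, 0.160, 0.0727 and 0.127 in edgeR. Single libraries decided 2 of these. The uterus against lymph node difference was 1.08 ± 0.24 and passed without non-pregnant uterine Treg 5, the lowest library of its group (adjusted p = 0.0354), and the difference of non-pregnant uterine Treg from CD4conv was -1.05 ± 0.29 and passed without non-pregnant uterine Treg 2, the highest (adjusted p = 0.0467 in edgeR).

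The ratio of Il2ra to Il7r counts within a library does not depend on scaling. It was 0.586, 1.12, 0.922 and 1.33 in pregnant uterine Treg 1 to 4. The ratio was 0.970, 0.558, 0.713 and 1.00 in non-pregnant uterine Treg 1, 2, 3 and 5. It was 4.42, 3.98, 2.86 and 4.25 in lymph node Treg 1, 2, 3 and 5, and in CD4conv 1, 2, 3 and 5 it was 0.0764, 0.0738, 0.144 and 0.108. The uterine Treg libraries thus carried the 2 transcripts at similar counts, lymph node Treg carried more Il2ra and CD4conv far more Il7r, with no overlap between these 3 tiers and overlap of the uterine groups. Lymph node Treg were sorted as CD25-positive and uterine Treg as CD25-negative. The gap in this ratio between them therefore cannot be told apart from the gate. The mean log2 ratio was -0.08 ± 0.51 in pregnant uterine Treg, -0.34 ± 0.40 in non-pregnant uterine Treg, 1.93 ± 0.29 in Treg of the lymph node and -3.37 ± 0.46 in CD4conv (SD, n = 4 each, 1 count added to each gene).

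**Figure D3:**
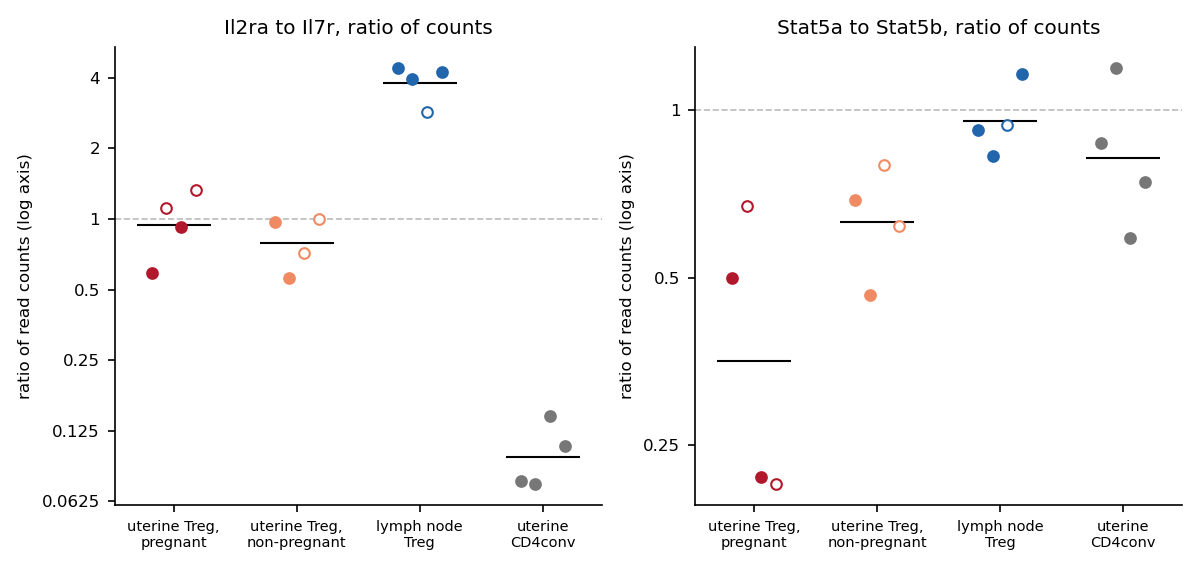
Ratio of read counts within each library on a log axis, for Il2ra to Il7r and for Stat5a to Stat5b, in the 4 groups (horizontal axis); bars are geometric means and open circles the 5 libraries over 30% background. The Il2ra to Il7r ratio lies between 2.86 and 4.42 in lymph node Treg, between 0.558 and 1.33 in uterine Treg and at or under 0.144 in CD4conv. Il2ra encodes CD25, for which lymph node Treg were sorted as positive and uterine Treg as negative.

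The shared chains of the receptor were the more abundant. Il2rb, the signalling beta chain of the IL-2 and IL-15 receptors, stood at 618, 281, 649 and 170.1 CPM in pregnant uterine Treg 1 to 4. Its level in non-pregnant uterine Treg 1, 2, 3 and 5 was 348, 587, 383 and 214 CPM, and in lymph node Treg 1, 2, 3 and 5 it was 788, 774, 577 and 923 CPM. In CD4conv 1, 2, 3 and 5 it stood at 379, 178, 226 and 551 CPM. The lymph node level was the high one: on scaled CPM its 4 libraries (602 to 799) lay above those of non-pregnant uterine Treg (267 to 496), yet the log2 fold change of -0.86 ± 0.31 did not pass (adjusted p = 0.252 in edgeR over genes above background). The other Il2rb differences were smaller, at 0.17 ± 0.31 for pregnancy, 0.29 ± 0.31 for non-pregnant uterine Treg against CD4conv and 0.47 ± 0.31 for pregnant uterine Treg against CD4conv (log2 fold change ± SE).

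Il2rg, the common gamma chain, averaged 436 ± 246 CPM in pregnant uterine Treg, 451 ± 178 CPM in non-pregnant uterine Treg, 501 ± 83.2 CPM in Treg of the lymph node and 299.8 ± 112 CPM in CD4conv (SD, n = 4 each). All groups overlapped. Its log2 fold changes over genes above background were -0.03 ± 0.27 for pregnancy, -0.03 ± 0.27 for uterus against lymph node, 0.66 ± 0.27 for non-pregnant uterine Treg against CD4conv and 0.63 ± 0.27 for pregnant uterine Treg against CD4conv, with adjusted p of 0.991, 0.983, 0.184 and 0.166 in edgeR.

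The order of levels, taken as CPM per kb of exonic length, showed how far the alpha chains shift among the 10 genes. Il2ra was the fifth highest in lymph node Treg at 51.7 ± 10.9, the eighth in pregnant (21.9 ± 8.38) and the ninth in non-pregnant uterine Treg (16.8 ± 5.36), and the lowest in CD4conv at 4.06 ± 0.77 (SD, n = 4 each). Il7r was the ninth in lymph node Treg at 16.3 ± 1.70, the sixth in pregnant uterine Treg at 30.04 ± 14.6, the seventh in non-pregnant uterine Treg at 27.6 ± 12.7, and the fourth in CD4conv at 51.5 ± 9.17 (SD, n = 4 each). Il2rg was the highest in every group, between 126 in CD4conv and 209.9 in lymph node Treg. In lymph node Treg the per-kb levels of Il2ra, Cish and Stat5b (51.7, 51.6 and 50.6) did not differ beyond their SD, and neither did those of Stat5a, Il7r, Cish and Il2ra in pregnant uterine Treg.

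**Figure D4:**
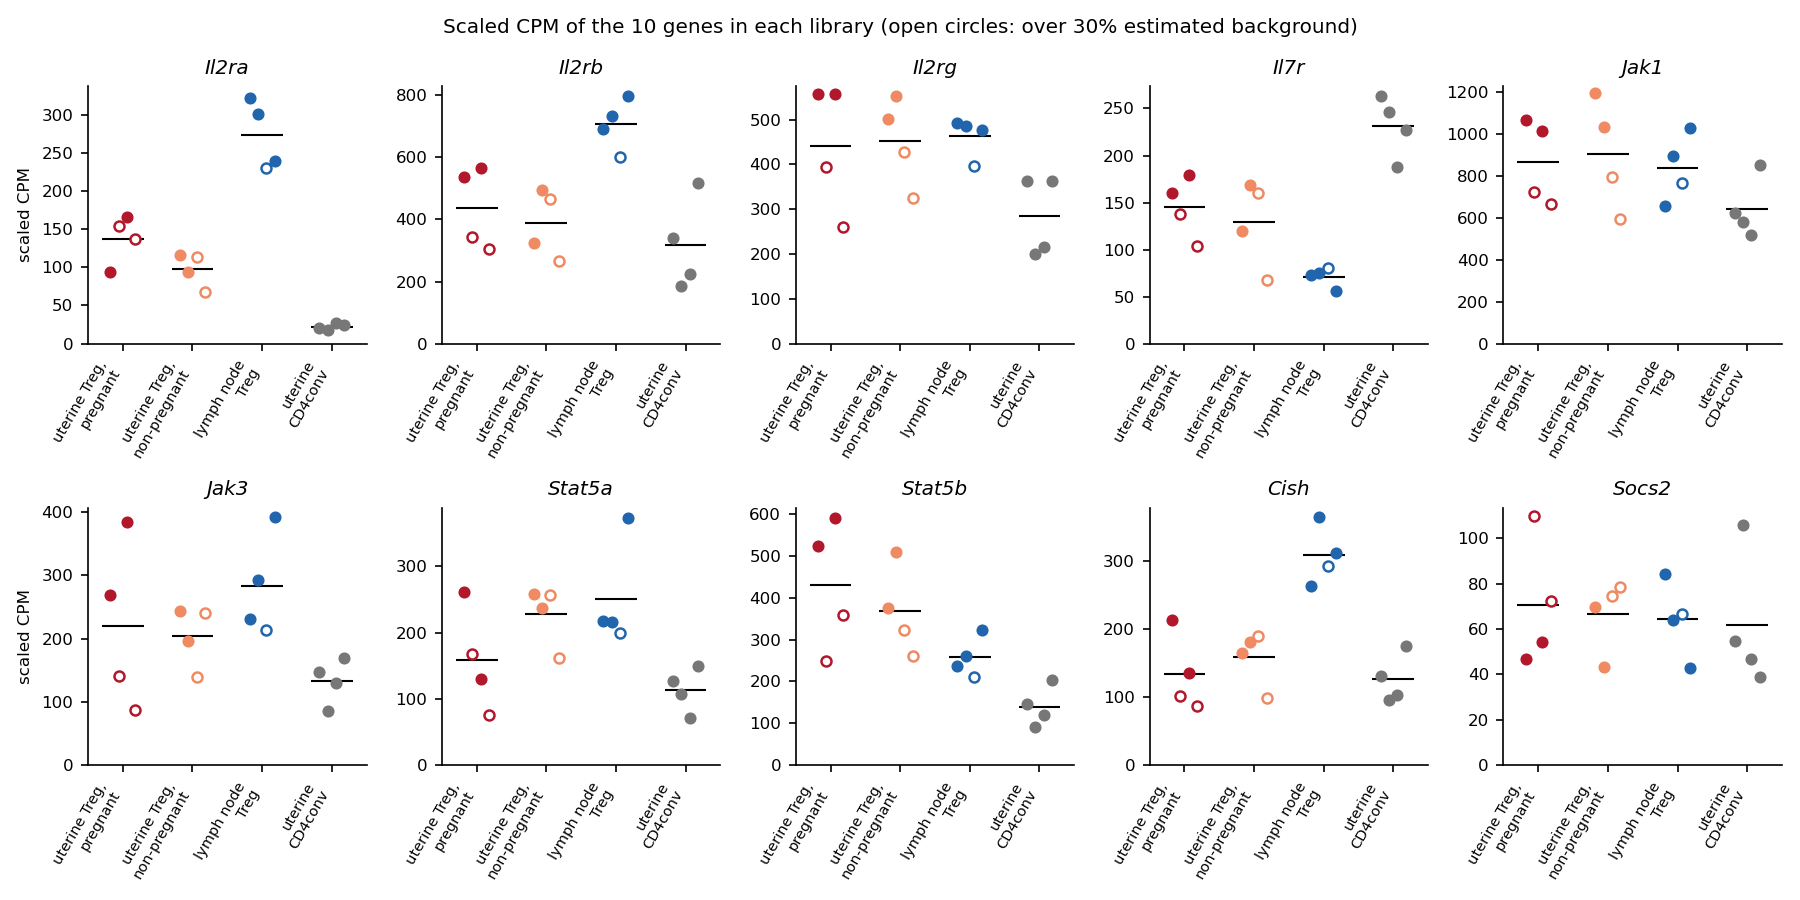
Scaled CPM (vertical axis, from 0) of the 10 genes in each library of the 4 groups; bars are means and open circles the 5 libraries over 30% background. Il2ra separates lymph node Treg, uterine Treg and CD4conv, and Cish and Il2rb are higher in lymph node Treg than in non-pregnant uterine Treg. Stat5b is higher in both uterine Treg groups and in lymph node Treg than in CD4conv.

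The kinases showed no difference that passed with all 16 libraries. Jak1, the kinase that sits on the beta and IL-7 receptor alpha chains, averaged 837 ± 423 CPM in pregnant uterine Treg, 909 ± 405 CPM in non-pregnant uterine Treg, 904 ± 212 CPM in Treg of the lymph node and 669.9 ± 175 CPM in CD4conv (SD, n = 4 each). Its log2 fold changes over genes above background ran from -0.06 ± 0.25 (pregnancy) to 0.49 ± 0.25 (non-pregnant uterine Treg against CD4conv). Jak3, the kinase of the common gamma chain, stood at 309, 115, 441 and 48.4 CPM in pregnant uterine Treg 1 to 4. It stood at 262, 232, 114 and 193 CPM in non-pregnant uterine Treg 1, 2, 3 and 5, at 263, 309, 205 and 452 CPM in lymph node Treg 1, 2, 3 and 5, and at 164, 81.4, 130.0 and 179.8 CPM in CD4conv 1, 2, 3 and 5. The pregnant group held both the lowest and nearly the highest of these values, the low ones in its 2 libraries over 30% background. Against CD4conv the log2 fold change of Jak3 was 0.74 ± 0.37 in pregnant uterine Treg (adjusted p = 0.225 in edgeR over genes above background), and without the 5 libraries over 30% background it was 1.32 ± 0.30 and passed (adjusted p = 0.0248 in edgeR). Of the pregnant group that fit kept libraries 1 and 3 alone, those with the higher Jak3. Leaving out 1 library at a time, Jak3 passed in 0 of 8 fits in either set of genes.

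Stat5b was higher in uterine Treg than in CD4conv. It stood at 603, 203, 679 and 201 CPM in pregnant uterine Treg 1 to 4, and at 404, 603, 266 and 209 CPM in non-pregnant uterine Treg 1, 2, 3 and 5. In lymph node Treg 1, 2, 3 and 5 it stood at 269, 276, 203 and 373 CPM, and in CD4conv 1, 2, 3 and 5 at 162, 86.9, 121 and 216 CPM. On CPM the highest CD4conv library reached into both uterine groups, while on scaled CPM every uterine Treg library, from 249 in the pregnant and 261 in the non-pregnant group, lay above the CD4conv maximum of 202. The lymph node Treg libraries (212 to 323 scaled CPM) also all lay above it, and that difference was not tested. Over genes above background Stat5b was higher in non-pregnant uterine Treg than in CD4conv by 2.63-fold (log2 fold change 1.40 ± 0.30, adjusted p = 0.00817 in edgeR) and in pregnant uterine Treg than in CD4conv by 3.09-fold (1.63 ± 0.31, adjusted p = 0.00245 in edgeR). Over all genes these were 1.31 ± 0.66 and 1.66 ± 0.67, with adjusted p of 0.974 and 0.783 in edgeR. Between uterus and lymph node it was 0.51 ± 0.30 and between pregnant and non-pregnant uterine Treg 0.23 ± 0.30, neither of which passed (adjusted p of 0.595 and 0.900 in edgeR over genes above background).

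Stat5a, its neighbour on chromosome 11, was the less abundant. It stood at 301, 136, 149 and 42.5 CPM in pregnant uterine Treg 1 to 4, and at 278, 281, 211 and 129 CPM in non-pregnant uterine Treg 1, 2, 3 and 5. In lymph node Treg 1, 2, 3 and 5 it stood at 247, 228, 191 and 432 CPM, and in CD4conv 1, 2, 3 and 5 at 141, 103, 71.0 and 159.6 CPM. On scaled CPM the non-pregnant uterine Treg (161 to 259) lay above CD4conv (70.8 to 149.9), but the log2 fold change of 1.01 ± 0.33 did not pass (adjusted p = 0.0876 in edgeR over genes above background). It was -0.52 ± 0.33 for pregnancy, -0.14 ± 0.33 for uterus against lymph node and 0.49 ± 0.33 for pregnant uterine Treg against CD4conv, none of which passed.

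The ratio of Stat5a to Stat5b counts was 0.500, 0.671, 0.220 and 0.213 in pregnant uterine Treg 1 to 4. The values in non-pregnant uterine Treg 1, 2, 3 and 5 were 0.688, 0.466, 0.794 and 0.618, those in lymph node Treg 1, 2, 3 and 5 were 0.919, 0.826, 0.940 and 1.16, and those in CD4conv 1, 2, 3 and 5 were 0.871, 1.19, 0.588 and 0.741. All uterine Treg libraries carried fewer counts of Stat5a than of Stat5b, and the ratio of every non-pregnant uterine library lay below every lymph node library. The transcripts of the 2 genes share 2.21% of the Stat5a and 3.16% of the Stat5b sequence words of 150 bases, the read length, and 11.7% and 15.4% of those of 30 bases, so the 2 genes can be told apart over most of their length. By gene body, Stat5a overlaps Stat3 on the other strand. The kits mark no strand, so reads in any shared exon could not be told apart by strand.

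Cish, the SH2-domain inhibitor that STAT5 induces, stood at 245, 82.5, 156 and 48.4 CPM in pregnant uterine Treg 1 to 4, and at 177, 214, 156 and 79.2 CPM in non-pregnant uterine Treg 1, 2, 3 and 5. In lymph node Treg 1, 2, 3 and 5 it stood at 299.1, 384, 281 and 361 CPM, and in CD4conv 1, 2, 3 and 5 at 146, 92.3, 103 and 187 CPM. Lymph node Treg carried the higher level, with every library above every other library, while the uterine groups and CD4conv overlapped. The log2 fold change of non-pregnant uterine Treg against lymph node Treg was -0.95 ± 0.29 over genes above background (unadjusted p = 0.00425, adjusted p = 0.150 in edgeR) and did not pass. The other differences of Cish were -0.24 ± 0.29 for pregnancy, 0.33 ± 0.29 for non-pregnant uterine Treg against CD4conv and 0.09 ± 0.29 for pregnant uterine Treg against CD4conv. By gene body, Cish overlaps a pseudogene and an antisense gene. Il2ra, Il2rg, Jak1 and Jak3 also overlap other genes. Whether exons are shared, and reads with them, was not examined.

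Socs2, another SOCS-family inhibitor that STAT5 induces, averaged 61.4 ± 20.7 CPM in pregnant uterine Treg, 62.5 ± 9.59 CPM in non-pregnant uterine Treg, 69.2 ± 19.2 CPM in Treg of the lymph node and 62.7 ± 27.2 CPM in CD4conv (SD, n = 4 each). The background made up 7.11% to 102% of its level, and it was therefore tested over all genes only, where its log2 fold changes lay between -0.44 ± 0.55 (non-pregnant uterine Treg against CD4conv) and 0.06 ± 0.55 (pregnancy).

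Counted by groups that do not overlap, the members looked as follows. In pregnant against non-pregnant uterine Treg, 0 of 10 members did not overlap on CPM, against 1.03% of all genes, and 0 of 9 on scaled CPM, against 3.26% of genes above background. In non-pregnant uterine Treg against lymph node Treg, Il2ra and Cish were lower on CPM (2 of 10, against 3.4% of all genes in either direction), and Il2ra, Il2rb and Cish on scaled CPM (3 of 9, against 10.1% of genes above background). In non-pregnant uterine Treg against CD4conv, Il2ra was higher on CPM (1 of 10, against 4.33% of all genes), and on scaled CPM Il2ra, Stat5a and Stat5b were higher and Il7r lower (4 of 9, against 12.3%). In pregnant uterine Treg against CD4conv, Il2ra was higher on CPM (1 of 10, against 4.36% of all genes), and on scaled CPM Il2ra and Stat5b were higher and Il7r lower (3 of 9, against 13.9%).

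The pathway was then followed into genes around the members. Of 7 ligand genes none stood among the genes above background; Il2 itself averaged 4.82 ± 3.25 CPM in pregnant uterine Treg, 2.61 ± 3.68 CPM in non-pregnant uterine Treg, 8.12 ± 5.34 CPM in Treg of the lymph node and 24.0 ± 19.3 CPM in CD4conv (SD, n = 4 each). Of 5 other receptor chains of the family, 3 were tested over genes above background and none passed in any comparison; Il4ra, which pairs with the common gamma chain in the IL-4 receptor, was the most abundant, at 409 ± 252 CPM in pregnant uterine Treg, 505 ± 269 CPM in non-pregnant uterine Treg, 496 ± 163 CPM in Treg of the lymph node and 313 ± 175 CPM in CD4conv. Of the other JAK and STAT genes, Stat3, Jak2 and Stat6 had the highest mean CPM, and none of these 3 passed in any comparison. Values are given for Stat3 alone. Stat3, the main STAT of IL-6 signalling, averaged 391 ± 149.9 CPM in pregnant uterine Treg, 289.6 ± 94.2 CPM in non-pregnant uterine Treg, 371 ± 135 CPM in Treg of the lymph node and 309.96 ± 19.5 CPM in CD4conv (SD, n = 4 each). Its log2 fold change was 0.50 ± 0.22 for pregnancy (adjusted p = 0.743 in edgeR over genes above background).

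Of 14 inhibitors, 8 were tested over genes above background. Ptpn6, which encodes the phosphatase SHP-1, averaged 81.8 ± 54.8 CPM in pregnant uterine Treg, 79.9 ± 22.0 CPM in non-pregnant uterine Treg, 222 ± 40.3 CPM in Treg of the lymph node and 356 ± 139 CPM in CD4conv (SD, n = 4 each). It was lower in non-pregnant uterine Treg than in lymph node Treg (log2 fold change -1.34 ± 0.32, adjusted p = 0.0492), lower in non-pregnant uterine Treg than in CD4conv (-2.07 ± 0.33, adjusted p = 0.000625) and lower in pregnant uterine Treg than in CD4conv (-2.08 ± 0.33, adjusted p = 0.000581 in edgeR). Socs3, an inhibitor best known for curbing IL-6 signals, was lower in non-pregnant uterine Treg (191 ± 53.9 CPM) than in CD4conv (447 ± 106 CPM; -1.15 ± 0.29, adjusted p = 0.0214 in edgeR). SHP-1 is abundant in myeloid cells, whose markers reached higher summed levels in CD4conv, in the ranges given above; their part in these differences was not tested. Socs1 had a log2 fold change of -1.72 ± 0.48 in uterus against lymph node and did not pass (adjusted p = 0.109 in edgeR).

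Of 17 genes known as induced by IL-2, IL-7 or STAT5, 15 were tested over genes above background. In non-pregnant uterine Treg against CD4conv, 4 were higher and 1 lower, where 6.1% of all genes above background passed in either direction. Foxp3 is counted among the 4 in both comparisons with CD4conv, although its difference there was set by the sort gates. Beside Foxp3 (log2 fold change 7.92 ± 0.58), Pim1 (1.63 ± 0.23) and Pim3 (1.71 ± 0.29), which encode survival kinases, and Tnfrsf4 (1.78 ± 0.36), which encodes the costimulatory receptor OX40, were higher, and Xbp1 (-1.38 ± 0.30), a factor of the secretory stress response, was lower. Pim1 stood at 2131 ± 808 CPM in non-pregnant uterine Treg against 717 ± 63.0 CPM in CD4conv (SD, n = 4 each). In pregnant uterine Treg against CD4conv, 4 were higher and 2 lower, where 8.39% of genes passed. Foxp3 (8.13 ± 0.59), Pim1 (1.30 ± 0.23), Tnfrsf4 (1.17 ± 0.35) and Gzmb (2.46 ± 0.60), which encodes the protease granzyme B, were higher, and Xbp1 (-1.69 ± 0.30) and Bcl2 (-1.31 ± 0.31), the survival factor that IL-7 maintains, were lower. None of the 15 passed in uterus against lymph node or in pregnancy, where their median log2 fold changes were -0.39 and -0.31. Against CD4conv the medians were -0.15 in non-pregnant and -0.26 in pregnant uterine Treg, with 6 genes positive and 9 negative in each. Over all genes Foxp3 alone of the pathway's genes outside the members passed, in both comparisons with CD4conv (adjusted p = 0.000111 and 7.78e-05 in edgeR).

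Of 8 regulators of Il7r, 3 were tested over genes above background. Foxo1, the factor that activates Il7r in mouse T cells, averaged 662 ± 205 CPM in pregnant uterine Treg, 663 ± 286 CPM in non-pregnant uterine Treg, 665 ± 131 CPM in Treg of the lymph node and 263 ± 109 CPM in CD4conv (SD, n = 4 each). It was higher in non-pregnant (log2 fold change 1.41 ± 0.28, adjusted p = 0.00375) and in pregnant uterine Treg (1.56 ± 0.28, adjusted p = 0.00153 in edgeR) than in CD4conv, the group in which Il7r was highest. Klf2 and Ets1 did not pass in any comparison.

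The genes whose pattern was most like that of Il2ra and of Il7r were taken by the Pearson correlation of log2(CPM + 1) over the 16 libraries, among 8513 protein-coding genes with a mean of at least 20 CPM. The libraries share the groups, depth and background, so these values describe a pattern. For Il2ra the 5 nearest were Tnfrsf9 (r = 0.965), Izumo1r (0.902), H2-Ob (0.901), Rln3 (0.897) and Slc35d1 (0.888). Tnfrsf9, which encodes the costimulatory receptor 4-1BB, averaged 135 ± 60.3 CPM in pregnant uterine Treg, 101 ± 25.7 CPM in non-pregnant uterine Treg, 309 ± 53.2 CPM in Treg of the lymph node and 14.9 ± 2.65 CPM in CD4conv (SD, n = 4 each), the same order as Il2ra. Izumo1r encodes folate receptor 4, a surface protein of mouse Treg, and averaged 138 ± 68.3 CPM in pregnant uterine Treg, 212 ± 103 CPM in non-pregnant uterine Treg, 543 ± 201 CPM in Treg of the lymph node and 35.6 ± 16.5 CPM in CD4conv. For Il7r the 5 nearest were Tagln2 (r = 0.907), Ostf1 (0.897), Abhd17b (0.895), Cd47 (0.875) and Sec11c (0.864). Cd47, the ligand by which cells restrain phagocytes, averaged 473 ± 252 CPM in pregnant uterine Treg, 396 ± 157 CPM in non-pregnant uterine Treg, 328 ± 42.6 CPM in Treg of the lymph node and 644 ± 76.8 CPM in CD4conv (SD, n = 4 each). Among the members, Il2rb (r = 0.681) and Stat5b (0.611) were nearest to Il2ra, and Il7r (-0.585) was the one with a negative correlation.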

How the data were processed

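The authors deposited raw read counts for 49585 genes in 16 libraries, as 1 table; the single-library files were not used. Per the labels' protocols, RNA was purified with a micro-scale kit, cDNA was made with SMART-Seq v4, libraries with Nextera XT, and reads of 150 bp were sequenced in pairs on a NextSeq 500 in 2 batches; these kits mark no strand. Per the submitters' processing notes, Trimmomatic, HISAT2, SAMtools, featureCounts and DESeq2 were used with GRCm38; the sources used here give no versions. Identifiers were matched to GENCODE annotation, which named 49326 of 49585.

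Counts were tested in R 4.3.3 with edgeR 4.0.16 (quasi-likelihood, TMM, filterByExpr, robust, group as the sole term over 16 libraries) and Benjamini-Hochberg adjustment at 0.05. SE is the absolute log2 fold change over the square root of F. The fit over 4719 protein-coding genes whose mean share exceeded 5 times the estimated background was a listed alternative. DESeq2 1.42.0, RLE scaling, other filters, fewer libraries and a replicate block were the other alternatives; 3 combinations with the background filter were added after seeing the data. The edgeR fits were also run on simulated counts, whose outcome is not given here. Those counts had a single dispersion for all genes and lacked the libraries' differing background, so they cannot vouch for the fits here. Replicates are pools of mice, and p-values measure the spread between pools.

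All 10 members were named in every comparison. Of 6 pathway lists, genes past the threshold in either fit were named, and otherwise up to 3 with the highest mean CPM; 1 result is not reported here; the genes nearest to Il2ra and Il7r were the 5 with the highest correlation. The members, lists and tests were chosen with earlier results of these data known.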

Additional observations from a re-analysis of the deposited data

Results flagged for a closer look

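Of 92 sets of 4 libraries examined (the 10 genes on CPM and scaled CPM and 3 ratios, in each group), 2 held 1 library far from the other 3; chance alone marks about 1 in 20. Il2rg in lymph node Treg 3 stood at 396.112 scaled CPM, below the other 3 libraries of that group (476 to 493). That library has an estimated background of 38.6%. Stat5a in lymph node Treg 5 stood at 373.867 scaled CPM, above the other 3 (199 to 217). The cause of either was not tested.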

How the results depend on the processing

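Over all genes no member passed in edgeR with TMM scaling and all 16 libraries, and the calls depend on the genes tested, the scaling, the tool and the libraries. For uterus against lymph node, 1 member passed over genes above background, with TMM or RLE scaling, and 0 in the other settings without a block. For non-pregnant uterine Treg against CD4conv, 2 passed over genes above background (TMM, RLE, or without the 5 libraries over 30% background) and over all genes without those libraries, and 1 with DESeq2 or with at least 10 CPM in 4 libraries. For pregnant uterine Treg against CD4conv, 2 passed over genes above background (TMM or RLE), 3 without the 5 libraries in either set of genes, and 1 with RLE, DESeq2 or at least 10 CPM in 4 libraries over all genes. Pregnancy gave 0 members in every setting run. Leaving out 1 library at a time, over either set of genes, gave 0 to 2 members for uterus against lymph node. It gave 0 to 3 for non-pregnant uterine Treg against CD4conv and 0 to 2 for pregnant uterine Treg against CD4conv. Over genes above background, Il2ra passed in 8 of 8 such fits in each of the 3, and Stat5b in 8 of 8 in both comparisons with CD4conv. For uterus against lymph node, the Il2ra calls cannot be told apart from the CD25 gates. Against CD4conv, Il2ra was among the genes above background through its level in the Treg groups.

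Genes called higher and lower were 10 and 146 for non-pregnant uterine Treg against CD4conv over all genes, 147 and 141 over genes above background and 43 and 292 with DESeq2; for pregnant uterine Treg against CD4conv they were 10 and 120, 194 and 202, and 43 and 268. For uterus against lymph node they were 0 and 0, 44 and 17, and 10 and 20, and for pregnancy 0 and 0, 0 and 0, and 7 and 11.

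Whether the replicate numbers shared by 3 groups pair the libraries was not settled. Deviations of equally numbered libraries correlated between -0.26 and 0.34 for uterine and lymph node Treg. For uterine Treg and CD4conv they correlated between -0.21 and 0.12, and for lymph node Treg and CD4conv between -0.40 and 0.36. Unequally numbered libraries ran from -0.48 to 0.39, -0.28 to 0.41 and -0.38 to 0.45 in the same order. These ranges overlap, so the check cannot decide, and the libraries were treated as unpaired outside the block. With the replicate block over genes above background, 1 member (Il2ra) passed for uterus against lymph node and 3 (Il2ra, Stat5a and Stat5b) for non-pregnant uterine Treg against CD4conv; over all genes the block gave 0 and 0.

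Of 994 alternative fold changes of single members, 77 had the opposite sign, none of them past the threshold. For pregnancy these log2 fold changes were, for Il2rg, -0.033 (genes above background), -0.020 (RLE), -0.021 (DESeq2) and -0.022 (genes above background, RLE). For Jak1 they were -0.061, -0.10, -0.10 and -0.051 in the same settings, -0.0371 with at least 10 CPM in 4 libraries and -0.077 over genes above background without the 5 libraries. For Cish they were 0.0034 with no filter, 0.13 without the 5 libraries and 0.035 over genes above background without them. For Socs2 they were -0.034 with RLE and -0.035 with DESeq2. For uterus against lymph node, Il2rg was at 0.17 without the 5 libraries and 0.12 over genes above background without them, and Jak1 at -0.0066 with the 2 groups alone and -0.13 with the block over all genes. The cause was not tested.

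Leaving out 1 library, the pregnancy log2 fold changes ran from -0.064 to 0.79 (Il2ra), -0.092 to 0.94 (Il2rb), -0.29 to 0.63 (Il2rg), -0.18 to 0.85 (Il7r), -0.33 to 0.45 (Jak1), -0.30 to 0.89 (Jak3), -1.05 to 0.034 (Stat5a), -0.15 to 1.00 (Stat5b), -0.65 to 0.41 (Cish) and -0.15 to 0.32 (Socs2). Those for uterus against lymph node ran from -0.72 to 0.12 (Il2rg), -0.42 to 0.28 (Jak1), -0.74 to 0.12 (Stat5a), -0.26 to 0.65 (Stat5b) and -0.58 to 0.16 (Socs2). For non-pregnant uterine Treg against CD4conv they ran from -0.43 to 0.64 (Il2rb), -0.089 to 0.66 (Jak1), -0.31 to 0.53 (Cish) and -0.69 to 0.21 (Socs2), and for pregnant uterine Treg against CD4conv from -0.011 to 0.69 (Jak1), -0.29 to 0.79 (Stat5a), -0.52 to 0.45 (Cish) and -0.63 to 0.28 (Socs2). The other 17 members' comparisons kept their direction. Except for Socs2, these ranges pool fits over all genes with fits over genes above background, so they also hold the difference between these sets. For Il2ra in pregnancy, the fits over genes above background alone ran from 0.35 to 0.64. The estimated background limits the low values: it made up 24.9% to 38.6% of Il2ra in CD4conv and, by library, 7.11% to 102% of Socs2.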
